A study of Mus musculus with 4 samples.

Results

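The serpins are a family of proteins that mostly inhibit serine proteases, and their genes were followed here in mouse liver with and without a hepatic deletion of Ubc13. Every gene whose symbol starts with Serpin was taken, in clades A to I, and 7 pseudogenes were left out, which gave 61 members among the 56953 gene rows of the count table. The deletion group was 2 liver samples from mice with homozygous loxP-flanked (flox/flox) Ubc13 alleles that were labelled Alb positive and described as having a hepatic Ubc13 deletion, driven in such mice by Cre recombinase under the albumin promoter of hepatocytes. The control group was 2 liver samples with the same flox/flox alleles, labelled Alb negative. All mice were 2 months old on a normal diet. Which other cells of the liver keep the gene is not in the labels and was not measured. The tissue is labelled liver, while the protocol speaks of primary hepatocyte RNA, so the material may be either. Ubc13, encoded by Ube2n, is a ubiquitin-conjugating enzyme that builds K63-linked chains, and the series asks how its loss bears on metabolic steatohepatitis.

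A serpin presents an exposed loop as bait. When the target protease cuts the loop, the serpin changes shape, keeps the protease bound and distorts it, so that each molecule works once. Hepatocytes secrete most plasma serpins, which hold back neutrophil elastase, thrombin, plasmin and the complement protease C1s, while serpins of clade B lack a classical secretion signal and work mainly inside cells. Several members, such as the hormone carriers Serpina6 and Serpina7 and the collagen chaperone Serpinh1, are not known as protease inhibitors.

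The 4 libraries held 16927947 and 17114003 counts in the deletion group and 17800138 and 16270424 in the control group. Ube2n fell to 5.87 and 5.96 CPM (counts scaled to a common library total) in the deletion libraries, against 41.2 and 44.9 CPM in controls (log2 fold change -2.86 ± 0.16 SE, adjusted p = 0.00188). Which exons the loxP sites flank is not in the labels, and the counted 3' stretch may lie outside the deleted part. Sex-linked RNAs were unequal as well. Xist, made from the inactive X in females, had 9590 and 3896 counts in the deletion libraries and 9 and 2 in controls. Counts of 4 Y-linked genes (Eif2s3y, Kdm5d, Uty, Ddx3y) summed to 0 and 1754 in deletion replicates 1 and 2, and 2312 and 2209 in controls. Deletion replicate 2 thus had both Xist and Y-linked RNA, while deletion replicate 1 had Xist alone, so the deletion libraries also differed from each other. Genotype and these sex-linked differences cannot be told apart in this design. That holds for every serpin result below, and the part of sex in them was not tested. The labels do not say that the replicates are separate animals, so p-values measure the spread between these samples, which may in part be technical.

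A list of 9 hepatocyte markers (Alb, Apoa1, Apoa2, Ttr, Apob, Cps1, Ass1, Pck1 and Hnf4a) summed to 68405 and 64378 CPM in the deletion libraries and 161813 and 154246 CPM in controls, so the labelled tissue carried its defining transcripts in every library. All 9 had a lower level in both deletion libraries, and 3 of the 9 fell at the threshold. Over all tested genes, 27.3% lay lower without overlap and 2.16% were called lower. The 8 cholangiocyte markers summed to 1358 and 1954 CPM in the deletion libraries and 116 and 63.0 CPM in controls. Of the 7 tested, 2 rose, Spp1 and Sox9, where 4.41% of all tested genes were called higher. Spp1, osteopontin, made up most of the sum, with 1325 and 1913 CPM in the deletion libraries and 50.3 and 52.4 CPM in controls. Without it the sums were 33.5 and 40.6 CPM in the deletion libraries, within the control values of 65.5 and 10.6 CPM. The defining keratin Krt19 had 2.91 and 3.96 CPM in the deletion libraries and 39.1 and 3.22 CPM in controls. The 10 macrophage and monocyte markers summed to 664 and 564 CPM in the deletion libraries and 308 and 419 CPM in controls, with 1 of the 10 called higher. All 10 had a positive log2 fold change, and 7 lay higher without overlap, as did 4185 of all 14600 tested genes. In bulk tissue, fewer cells of a type and less RNA per cell cannot be told apart. The part of these shifts in the serpin results was not tested.

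Together the serpins took 1.65% (exact 95% interval 1.641 to 1.653) and 1.53% (1.523 to 1.534) of all counts in the deletion libraries, against 2.71% (2.700 to 2.715) and 3.69% (3.685 to 3.704) in controls. The groups did not overlap. Clade A held 1.11% and 0.980% of counts in the deletion libraries and 2.22% and 3.25% in controls. Clade B, mostly intracellular, was higher in the deletion libraries, with 0.0195% and 0.0279% of counts in the deletion libraries and 0.00349% and 0.00205% in controls. Albumin, for comparison, held 4.87% and 4.87% of counts in the deletion libraries and 10.8% and 10.3% in controls. No test was run on these shares, and the intervals cover counting error only.

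Of the 61 members, 29 had enough counts to be tested and 32 did not. Among the 29, 5 rose and 5 fell in the deletion libraries at an adjusted p under 0.05 (edgeR quasi-likelihood test, adjusted over all 14600 genes tested). Those 10 are 34.5% of the tested members, where 6.57% of all tested genes were called, 4.41% higher and 2.16% lower. The family was chosen with earlier results of these data known, so this share is descriptive. The median log2 fold change was -0.14 over the 29 and -0.00 over all tested genes. The 2 groups did not overlap in 23 of the 29, against 56.0% of all tested genes. Serpina9 passed the filter only through the controls, which alone had 10 or more counts, so its difference was in part a condition of being tested. Of the 10 calls, those of Serpina1d, Serpina9, Serpinb6a and Serpinb6b held under each of 12 other settings of the analysis. Leaving out deletion replicate 2 left 2 members called higher and 2 lower, and leaving out control replicate 1 gave 8 and 8. Scaling by library size alone moved the median of all genes by 0.29 on the log2 scale (88.6% of its calls were higher, against 67.2%), and no called serpin changed direction.

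**Figure D1:**
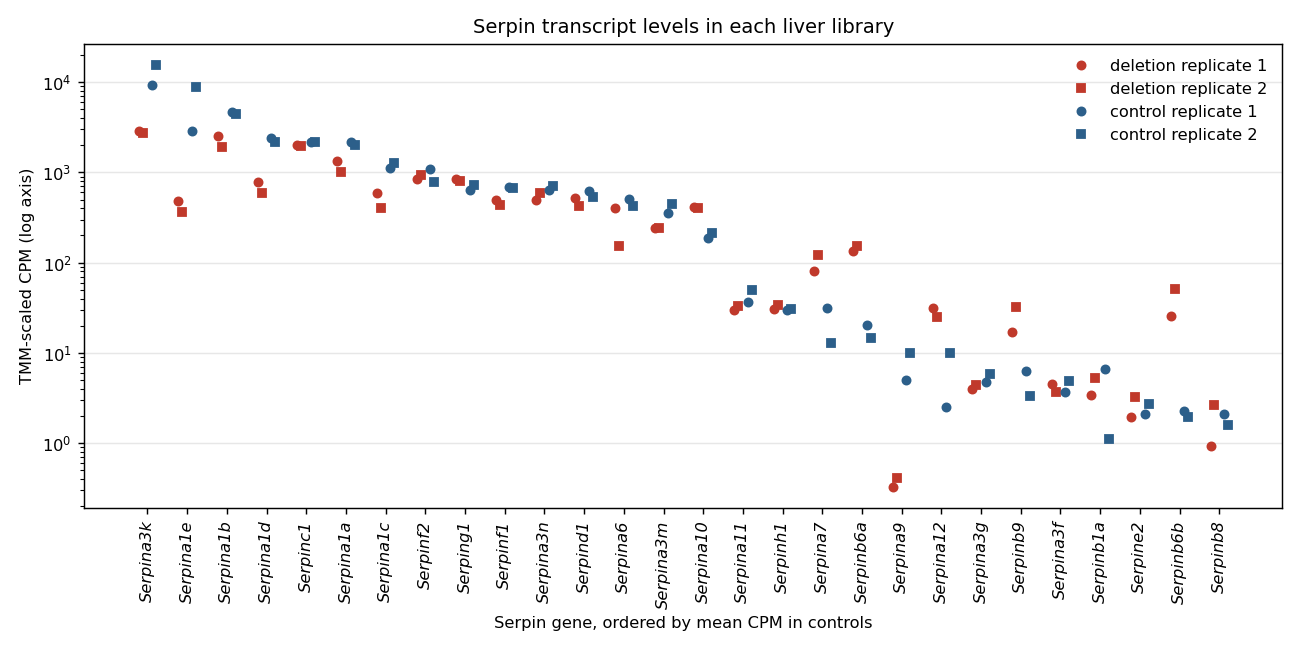
Level of 28 tested serpins in each library, as CPM scaled by trimmed mean of M-values (TMM) on a log axis, with deletion libraries in red and control libraries in blue. Serpina3k and the Serpina1 genes sit at the left with deletion points below control points, and Serpinb6a, Serpinb6b, Serpinb9 and Serpina7 have deletion points above.

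The spread of levels within the family was wide. With reads from transcript 3' ends alone, CPM is not divided by length, and levels of different genes can be set side by side. Serpina3k was first in both groups, with a mean of 2825 CPM in the deletion libraries and 12415 CPM in controls. Serpina1e ranked 12 in the deletion libraries at 422 CPM and 2 in controls at 5899 CPM. Its place next to Serpina1b (4583 CPM in controls) is not firm, because Serpina1e had 2857 and 8941 CPM in control replicates 1 and 2, on either side of both Serpina1b values. Serpinc1, the antithrombin gene, ranked 3 in the deletion libraries and 5 in controls. At the low end, Serpinb8 had 0.933 and 2.62 CPM in the deletion libraries and 2.09 and 1.58 CPM in controls, where 3 counts correspond to 0.154 to 0.206 CPM.

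The Serpina1 genes encode alpha-1 antitrypsin, the main plasma inhibitor of neutrophil elastase, for which the mouse carries several near-identical copies. All 5 expressed copies had lower levels in both deletion libraries, and 3 of them, Serpina1c, Serpina1d and Serpina1e, fell at the threshold. Among all tested genes, 27.3% lay lower without overlap and 2.16% were called lower. Serpina1f, the sixth, had 0 counts in every library. Serpina1e (ENSMUSG00000072849, chromosome 12 from 103946931 to 103958975, minus strand, GRCm38) had 482 and 363 CPM in the deletion libraries, against 2857 and 8941 CPM in controls. The controls differed from each other by far more than the deletion libraries did, yet the groups stayed apart. Its log2 fold change was -3.80 ± 0.57 (14.0-fold lower, adjusted p = 0.0196). Over the 12 alternatives its adjusted p ran from 1.15e-56 to 0.0812, the highest without deletion replicate 2, where the call was lost. The size rested on the controls: the log2 fold change was -4.41 without control replicate 1 and -2.76 without control replicate 2.

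Serpina1d had 792 and 596 CPM in the deletion libraries and 2415 and 2198 CPM in controls, a log2 fold change of -1.73 ± 0.22 (adjusted p = 0.0123). The 2 controls were close to each other here, and the call held under every alternative run. The Serpina1d gene lies inside the annotated span of Serpina1b on the same strand, and how reads in both spans were counted is not given. Serpina1c had 596 and 406 CPM in the deletion libraries, against 1127 and 1281 CPM in controls (log2 fold change -1.26 ± 0.24, adjusted p = 0.0343). Its adjusted p ran from 8.08e-08 to 0.130 over the alternatives, the highest without deletion replicate 2. Serpina1b and Serpina1a did not pass. Serpina1b, the most abundant copy in the deletion libraries, had 2516 and 1910.0 CPM there and 4727 and 4439 CPM in controls (-1.05 ± 0.23, adjusted p = 0.0520). Serpina1a had 1347 and 1015 CPM in the deletion libraries and 2161 and 2036 CPM in controls (-0.83 ± 0.21, adjusted p = 0.0779). Both lie near the threshold, and both passed with DESeq2 (adjusted p = 4.01e-05 and 0.00254) and with no filter on low counts (2.14e-05 and 0.00142). Serpina1b, but not Serpina1a, also passed with limma-voom (0.0411), a filter of 1 CPM in 2 libraries (0.0479) and robust dispersion (0.0456). Over all alternatives the adjusted p ran from 2.14e-05 to 0.196 for Serpina1b and from 0.00142 to 0.309 for Serpina1a.

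How far reads of the copies can be told apart differed between them. Of the distinct 75-base words in the last 500 bases of each coding transcript, 40.7% in Serpina1a, 23.9% in Serpina1c, 15.7% in Serpina1d and 5.22% in Serpina1b occur in a transcript of another gene. In Serpina1e the share was 1.19%. How the authors' counting treated reads with several matches is not given in the sources used here, so single values of Serpina1a, Serpina1c and Serpina1d are the less certain ones. Added up to 1 row, the Serpina1 copies had 5733 and 4289 CPM in the deletion libraries, against 13286 and 18899 CPM in controls. This sum, which does not depend on how reads were divided among copies, fell 3.21-fold (log2 fold change -1.68 ± 0.30, adjusted p = 0.0315, where 6.49% of features in that fit were called). It still depends on whether reads with several matches were dropped. Serpina1a and Serpina1c also share words with Gm8893, a pseudogene outside the sum. Without deletion replicate 2 the sum had an adjusted p of 0.109, in a range over the alternatives of 3.06e-13 to 0.109.

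Within the sum, the mix of copies also differed between groups. Serpina1e made up 8.40% (8.233 to 8.570) and 8.46% (8.270 to 8.649) of Serpina1 counts in the deletion libraries, against 21.5% (21.33 to 21.68) and 47.3% (47.14 to 47.51) in controls. The Serpina1e intervals of the 2 deletion libraries overlapped, and those of the 2 controls were far apart. Serpina1c held 10.4% (10.21 to 10.58) and 9.47% (9.273 to 9.672) in the deletion libraries, intervals that do not overlap, and 8.49% and 6.78% in controls. Serpina1b made up 43.9% and 44.5% in the deletion libraries and 35.6% and 23.5% in controls. Serpina1d held 13.8% and 13.9% in the deletion libraries, between the control shares of 18.2% and 11.6%.

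**Figure D2:**
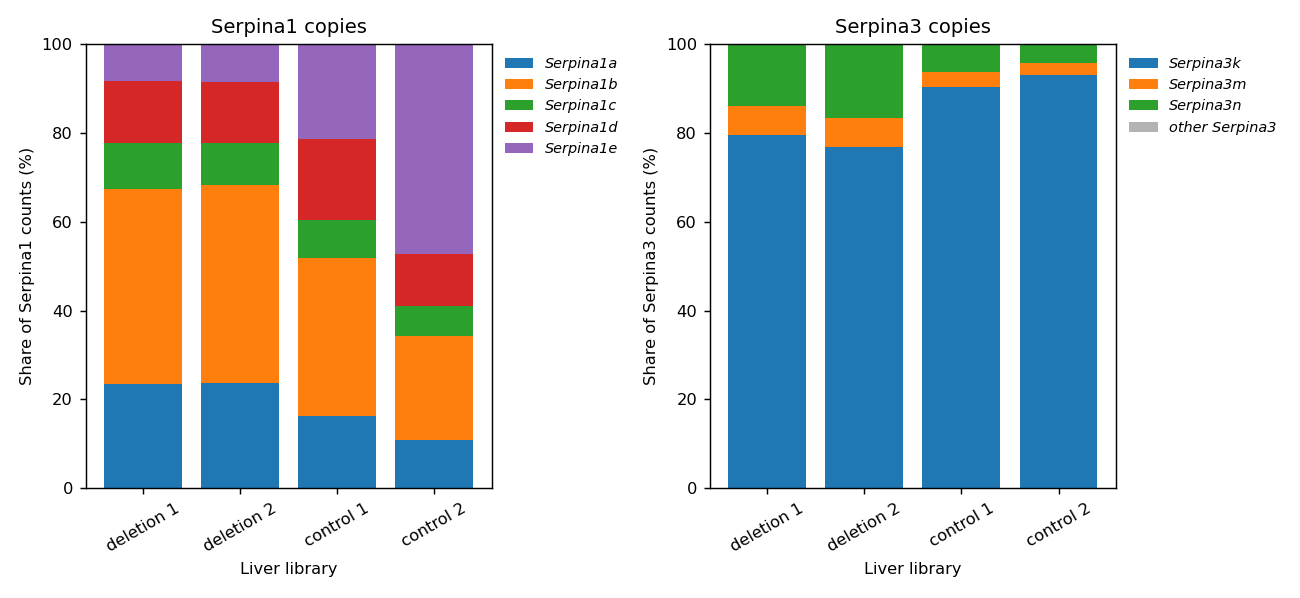
Share of the counts of each gene cluster (percent) taken by each copy, with 1 bar per library, for Serpina1 on the left and Serpina3 on the right. The Serpina1e share is 8.40% and 8.46% in the deletion bars and 21.5% and 47.3% in the control bars.

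The promoters of Serpina1a and Serpina1e are shown because these copies had the smallest and the largest difference among the 5. The sequences, from RefSeq on GRCm38.p6, run from 250 bases before to 50 bases after the annotated start. Capitals mark matches to GTTAAT, the half-site of the hepatocyte factor HNF1, and to TTGCNNAA, a pattern bound by C/EBP factors, on either strand.
Serpina1a, chr12:103863570-103863869, minus strand: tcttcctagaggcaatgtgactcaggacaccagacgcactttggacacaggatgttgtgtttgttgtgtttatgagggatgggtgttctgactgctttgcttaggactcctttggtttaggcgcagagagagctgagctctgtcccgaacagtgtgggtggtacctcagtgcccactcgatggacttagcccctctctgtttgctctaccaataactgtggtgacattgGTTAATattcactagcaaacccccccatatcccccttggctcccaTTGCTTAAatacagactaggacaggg
Serpina1e, chr12:103956848-103957147, minus strand: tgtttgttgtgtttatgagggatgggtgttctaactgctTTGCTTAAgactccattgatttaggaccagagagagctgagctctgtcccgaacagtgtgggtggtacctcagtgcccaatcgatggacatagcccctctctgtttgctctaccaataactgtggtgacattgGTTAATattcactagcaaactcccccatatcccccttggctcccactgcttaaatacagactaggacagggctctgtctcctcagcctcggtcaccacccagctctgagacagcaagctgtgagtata
Over the stretch that both windows cover, the 2 sequences were identical at 233 of 243 aligned positions (95.9%), and the windows are offset because the annotated starts differ. Each of the 5 expressed copies has a GTTAAT, which starts at position -78 relative to the annotated start in Serpina1e and at -27 to -16 in the others. Of all 32851 promoters in the table, 7.10% hold GTTAAT and 10.8% hold TTGCNNAA. TTGCNNAA was found in Serpina1a, Serpina1b, Serpina1d and Serpina1e. Among the other tested members with a promoter in the table, GTTAAT was also in Serpina7, which rose, and in the uncalled Serpinb8. TTGCNNAA was also in Serpina7 and in the uncalled Serpina12, Serpina3f and Serpinc1. A match describes letters and not a bound site.

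In the Serpina3 genes, a mouse expansion related to human alpha-1 antichymotrypsin, Serpina3k was the called member. Serpina3k, also called contrapsin, had 2895 and 2756 CPM in the deletion libraries, against 9329 and 15501 CPM in controls. The deletion libraries were close to each other, the controls were not, and the groups did not overlap. Its log2 fold change was -2.14 ± 0.32 (4.39-fold lower, adjusted p = 0.0189). Over the alternatives the adjusted p ran from 2.73e-20 to 0.0643, the highest without deletion replicate 2. None of its 75-base 3' words is shared with another gene, although its gene body on chromosome 12 (104338486 to 104346144) lies inside the annotated span of Serpina3m. Serpina3m had 245 and 241 CPM in the deletion libraries and 352 and 443 CPM in controls (-0.71 ± 0.18, adjusted p = 0.0710).

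Serpina3n, a secreted acute phase inhibitor known in mouse to block granzyme B, had 496 and 586 CPM in the deletion libraries and 644 and 703 CPM in controls (-0.31 ± 0.18, 95% interval -0.74 to 0.11, adjusted p = 0.335). Serpina3g, an inhibitor of lysosomal cathepsins that leucocytes express, had 4.01 and 4.37 CPM in the deletion libraries and 4.74 and 5.76 CPM in controls, and Serpina3f had 4.55 and 3.65 CPM in the deletion libraries and 3.70 and 4.87 CPM in controls. Neither passed (adjusted p = 0.525 and 0.933), and the sign of Serpina3f, -0.06 on the log2 scale, turned to 0.23 with library sizes alone. The remaining Serpina3 genes, Serpina3a, Serpina3b, Serpina3c, Serpina3i and Serpina3j, had between 0 and 21 counts per library. As 1 row, the Serpina3 genes had 3646 and 3592 CPM in the deletion libraries and 10333 and 16662 CPM in controls (-1.90 ± 0.30, adjusted p = 0.0235). Serpina3k made up 79.4% and 76.7% of that sum in the deletion libraries and 90.3% and 93.1% in controls. The summed call was lost without deletion replicate 1 (adjusted p = 0.0575) or 2 (0.0805), the top of a range that started at 1.18e-16.

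Serpins that restrain clotting, plasmin and complement had 1 called member, Serpina10, among the 5 tested, where 6.57% of all tested genes were called. Serpina10, the protein Z-dependent inhibitor of clotting factor Xa, rose to 410.0 and 404 CPM in the deletion libraries, against 186 and 215 CPM in controls. The values were tight within each group, and the log2 fold change was 1.02 ± 0.16 (2.03-fold higher, adjusted p = 0.0224). Leaving out deletion replicate 1 or 2 ended the call (adjusted p = 0.0757 and 0.0962, in a range over the alternatives of 4.35e-06 to 0.0962). Antithrombin (Serpinc1), which inhibits thrombin and factor Xa, had 2032 and 1939.7 CPM in the deletion libraries and 2170.2 and 2192 CPM in controls. Its log2 fold change was -0.14 ± 0.18 with an interval of -0.58 to 0.31 (adjusted p = 0.713), which leaves out a 2-fold change in either direction. The sign was positive, 0.16, with library sizes alone.

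Heparin cofactor II (Serpind1), also a thrombin inhibitor, had 520.1 and 423 CPM in the deletion libraries and 629 and 533 CPM in controls (-0.30 ± 0.19, interval -0.76 to 0.16, adjusted p = 0.391). Alpha-2 antiplasmin (Serpinf2), the main plasmin inhibitor of plasma, had 847 and 945 CPM in the deletion libraries, inside the control values of 1089.6 and 773 CPM (-0.06 ± 0.22, adjusted p = 0.912, and 0.24 with library sizes alone). C1 inhibitor (Serping1), which blocks C1s and plasma kallikrein, had 855 and 798 CPM in the deletion libraries and 642 and 732 CPM in controls (0.27 ± 0.17, interval -0.15 to 0.69, adjusted p = 0.404). None of these 3 passed, and each interval lies within a 2-fold change. Serpina5, the protein C inhibitor, stayed under the filter with 2 and 1 counts in the deletion libraries and 2 and 20 in controls.

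Of the 2 hormone carriers of the family, Serpina7 was called. Serpina7, the thyroxine-binding globulin of plasma, rose to 81.6 and 120.4 CPM in the deletion libraries, against 31.2 and 12.9 CPM in controls. The lower deletion value was above both controls, and the log2 fold change was 2.19 ± 0.43 (4.57-fold higher, adjusted p = 0.0380). Serpina7 is the family's 1 member on the X chromosome (139079257 to 139085236), and the deletion libraries were those with Xist. Deletion replicate 2, which also had Y-linked RNA, had fewer Xist counts than deletion replicate 1 and the higher Serpina7 value. Sex-linked differences and genotype cannot be told apart here, and whether sex bears on the level of Serpina7 was not tested. Without deletion replicate 2 its call was lost (adjusted p = 0.124), as it was with robust dispersion (0.0704), in a range over the alternatives of 1.39e-23 to 0.124. Its log2 fold change was 2.97 without control replicate 1. Serpina6, the corticosteroid-binding globulin, had 399.8 and 154 CPM in the deletion libraries and 511 and 423 CPM in controls (-0.75 ± 0.42, adjusted p = 0.337). The low value came from deletion replicate 2, and without deletion replicate 1 the gene passed (-1.61, adjusted p = 0.0313, in a range of 0.00436 to 0.755).

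Serpina9, known in human as a product of germinal centre B cells, had 0.329 and 0.411 CPM in the deletion libraries, against 4.99 and 10.02 CPM in controls, from 6, 8, 81 and 146 counts. It fell 19.8-fold (log2 fold change -4.31 ± 0.51, adjusted p = 0.00973), and no alternative ended the call, but it passed the filter only through the controls. The 4 B and plasma cell markers summed to 5.10 and 2.83 CPM in the deletion libraries and 1.97 and 3.36 CPM in controls. Their part in the Serpina9 result was not tested. Serpina12, or vaspin, an inhibitor of kallikrein 7 first described in fat tissue, had 31.7 and 24.9 CPM in the deletion libraries and 2.53 and 9.88 CPM in controls. Its groups did not overlap, but the controls lay far apart and the fit did not call it (2.20 ± 0.55, adjusted p = 0.0715). With DESeq2, limma-voom, library sizes alone and no filter, Serpina12 was called (adjusted p = 0.00063, 0.0433, 0.0396 and 2.03e-19). It passed without control replicate 1 (1.51, adjusted p = 0.00102) and without control replicate 2 (3.48, adjusted p = 1.25e-06), in a range of 2.03e-19 to 0.175. Serpina11 had 29.96 and 33.1 CPM in the deletion libraries and 36.6 and 50.01 CPM in controls (-0.46 ± 0.19, adjusted p = 0.217). Of the 75-base 3' words of Serpina11, 42.7% are shared with Gm28577, which overlaps Serpina11 and Serpina9 on the same strand. The Serpina11 value is therefore less certain.

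**Figure D3:**
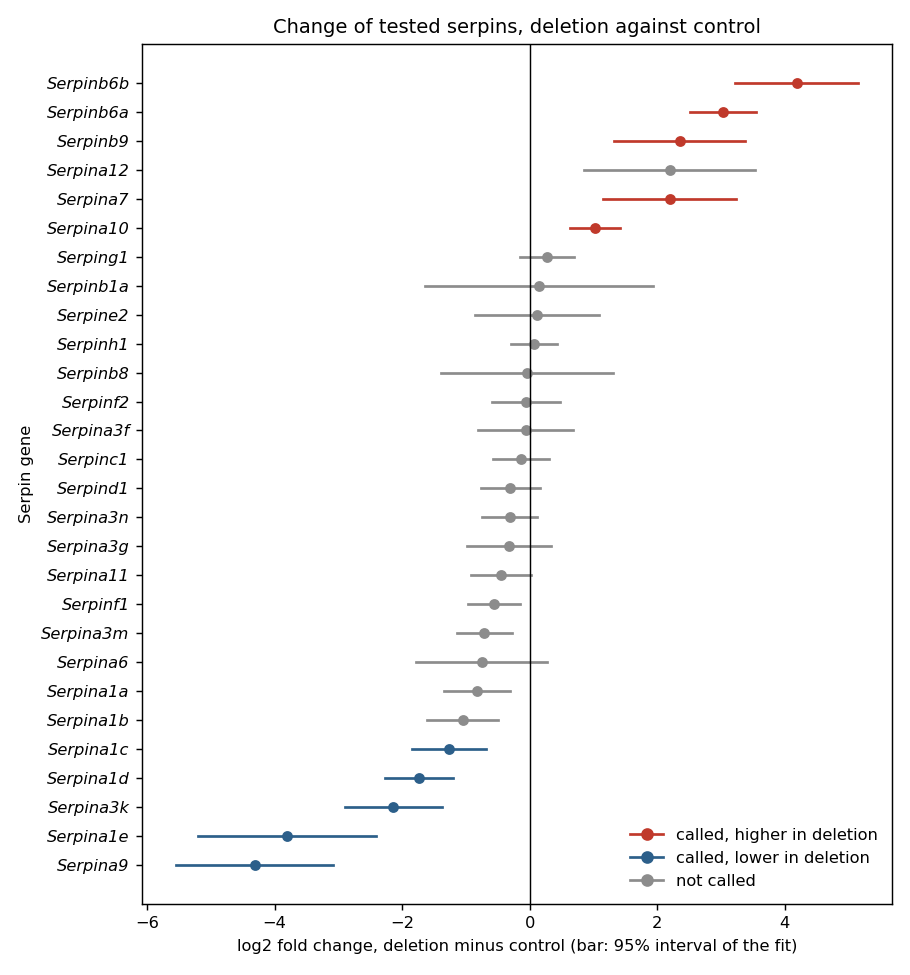
Log2 fold change, deletion minus control, of 28 tested serpins with the 95% interval of the edgeR fit, sorted by value. Serpinb6b, Serpinb6a and Serpinb9 stand at the top, Serpina9 and Serpina1e at the bottom, and the intervals of most uncalled genes cross 0.

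Inside the cell, clade B serpins neutralize granzymes and lysosomal proteases that leak or are delivered into the cytosol. Of the 26 clade B members, 5 were tested, and 3 of these rose: Serpinb6a, Serpinb6b and Serpinb9. Over all tested genes, 4.41% were called higher. Serpinb6a (ENSMUSG00000060147, chromosome 13 from 33917918 to 34002794, minus strand), a broadly expressed inhibitor of trypsin-like proteases and cathepsin G, had 134 and 153 CPM in the deletion libraries, against 20.5 and 14.7 CPM in controls. Every deletion value was far above every control value. The log2 fold change was 3.03 ± 0.21 (8.16-fold higher, adjusted p = 0.00390), and it held under each alternative run. The genes Nqo2 and Ripk1 overlap the annotated span of Serpinb6a on the opposite strand, and whether counting used strand is not stated.

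Serpinb6b, reported in mouse to inhibit granzyme A, had 25.7 and 51.4 CPM in the deletion libraries and 2.28 and 1.92 CPM in controls. The 2 deletion libraries differed from each other, yet both lay far above the controls, and the 18.3-fold rise (4.19 ± 0.40, adjusted p = 0.00585) held its call under each alternative run, with a log2 fold change of 3.60 without deletion replicate 2. Serpinb9, the granzyme B inhibitor that shields cytotoxic and antigen-presenting cells from their own granules, had 16.9 and 32.3 CPM in the deletion libraries and 6.28 and 3.29 CPM in controls. It rose 5.11-fold (2.35 ± 0.42, adjusted p = 0.0309). Over the alternatives the adjusted p ran from 4.43e-20 to 0.106, the highest without deletion replicate 2. Its 3' words, like those of Serpinb6a and Serpinb6b, are in no other gene's transcripts. Summed rows gave the same calls, 3.21 ± 0.23 for the Serpinb6 genes (adjusted p = 0.00400) and 2.33 ± 0.41 for the Serpinb9 genes (adjusted p = 0.0290, up to 0.0969 without deletion replicate 2 and down to 9.61e-20).

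Markers of T and NK cells, which make granzymes, were low in every library, and the 7 genes summed to 4.66 and 2.93 CPM in the deletion libraries and 2.53 and 5.01 CPM in controls. The 7 neutrophil markers, with Ly6g at 0 in every library, summed to 4.99 and 5.29 CPM in the deletion libraries and 0.616 and 2.13 CPM in controls. Neither of the 2 tested neutrophil markers was called. The macrophage and neutrophil marker sums and Spp1 were higher in the libraries in which the clade B genes rose, and their part in that result was not tested.

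Promoter windows of the 3 genes are shown because these members rose together. Capitals mark matches to the interferon regulatory factor (IRF) element, GAAA and GAAA with any 2 bases between them, and to TTCNNNGAA, the element of STAT factors, on either strand.
Serpinb6a, chr13:34002745-34003044, minus strand: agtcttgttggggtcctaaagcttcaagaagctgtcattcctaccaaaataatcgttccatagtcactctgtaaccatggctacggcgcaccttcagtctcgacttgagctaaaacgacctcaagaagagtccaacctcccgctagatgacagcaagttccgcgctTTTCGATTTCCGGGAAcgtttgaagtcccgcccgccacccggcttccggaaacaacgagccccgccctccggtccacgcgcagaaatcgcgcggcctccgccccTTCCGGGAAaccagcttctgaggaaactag
Serpinb6b, chr13:32965011-32965310, plus strand: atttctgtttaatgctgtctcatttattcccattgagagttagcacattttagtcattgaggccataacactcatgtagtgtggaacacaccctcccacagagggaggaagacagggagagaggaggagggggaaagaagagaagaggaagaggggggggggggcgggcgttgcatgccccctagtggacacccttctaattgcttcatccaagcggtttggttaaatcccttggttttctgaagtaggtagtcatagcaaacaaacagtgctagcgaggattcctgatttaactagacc
Serpinb9, chr13:33004291-33004590, plus strand: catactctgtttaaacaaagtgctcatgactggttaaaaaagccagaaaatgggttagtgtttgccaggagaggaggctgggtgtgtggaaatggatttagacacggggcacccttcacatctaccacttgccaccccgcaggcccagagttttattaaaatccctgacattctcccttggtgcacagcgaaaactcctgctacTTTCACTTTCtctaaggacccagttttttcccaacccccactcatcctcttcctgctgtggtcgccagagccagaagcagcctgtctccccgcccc
Serpinb6a has 1 IRF match, which overlaps the first of its 2 TTCNNNGAA matches, in the window of its upstream start, and neither pattern in the window of its second annotated start. Serpinb9 has 1 IRF match, at position -46 relative to the start, and Serpinb6b has no match to either. Of all promoters in the table, 3.44% hold the IRF element and 8.30% hold TTCNNNGAA. Among the other tested members with a promoter there, TTCNNNGAA was in Serpina11, Serpina3f and Serpina3g, none of them called. The IRF element was in none of those other members. The NF-kB element (GGGA and TTCC with any 2 bases between them), found in 1.47% of all promoters, was in none of the 21 tested members that have an entry. These letters say nothing of binding.

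The remaining clade B genes gave little signal. Serpinb1a, an inhibitor of neutrophil elastase, cathepsin G and proteinase 3, had 3.40 and 5.24 CPM in the deletion libraries, between the control values of 6.65 and 1.10 CPM. Its log2 fold change of 0.15 ± 0.73 (adjusted p = 0.933, up to 0.966 over the alternatives) moved with the library left out. It was 1.97 without control replicate 1, -0.62 without control replicate 2 and -0.19 without deletion replicate 2. Serpinb8, an inhibitor of the convertase furin, overlapped between groups (-0.04 ± 0.56, adjusted p = 0.973). The other 21 clade B members had at most 3 counts in any library, among them Serpinb2, the plasminogen activator inhibitor of macrophages, with 0 and 0 counts in the deletion libraries and 3 and 0 in controls. Over the family, 18 members had 0 counts in all 4 libraries, and a count of 0 allows up to 0.154 to 0.206 CPM per library.

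None of the serpins of stroma and matrix described here, Serpine2, Serpinf1 and Serpinh1, passed the test. Serpine2, or protease nexin-1, had 1.92 and 3.24 CPM in the deletion libraries and 2.09 and 2.68 CPM in controls (adjusted p = 0.895). Serpinf1, the anti-angiogenic factor PEDF, which does not inhibit proteases, had 494 and 431 CPM in the deletion libraries and 691 and 676 CPM in controls (-0.56 ± 0.17, adjusted p = 0.108, in a range of 0.0260 with DESeq2 to 0.430). Serpinh1, the collagen chaperone HSP47 of the endoplasmic reticulum, had 30.3 and 34.0 CPM in the deletion libraries and 30.2 and 30.9 CPM in controls. Its interval of -0.29 to 0.43 lies well inside a 2-fold change (0.07 ± 0.15, adjusted p = 0.816). Stellate cell and fibroblast markers (10 genes) summed to 561 and 569 CPM in the deletion libraries, within the control values of 703 and 517 CPM. Serpini1, the neuroserpin gene, had 6 and 17 counts in the deletion libraries and 5 and 5 in controls, below the filter, and Serpine3 had 0 to 2 counts per library.

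Most tested members lie in 2 groups of neighbouring genes. On chromosome 12, 15 tested clade A genes start within 792 kb of each other, with called and uncalled genes side by side. Serpina10, which rose, opens the group, and the next gene, Serpina6, was not called. Serpina1e (-3.80) and Serpina9 (-4.31) are separated by Serpina11 (-0.46), and Serpina12, at 2.20 on the log2 scale, starts 34.0 kb after Serpina9. The Serpina11 value is less certain, because part of its 3' words are shared with the overlapping Gm28577. Serpina3k and Serpina3n, 68.2 kb apart, had -2.14 and -0.31. On chromosome 13, Serpinb6b and Serpinb9 are neighbours 38.0 kb apart, and Serpinb6a starts 915 kb beyond Serpinb9.

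**Figure D4:**
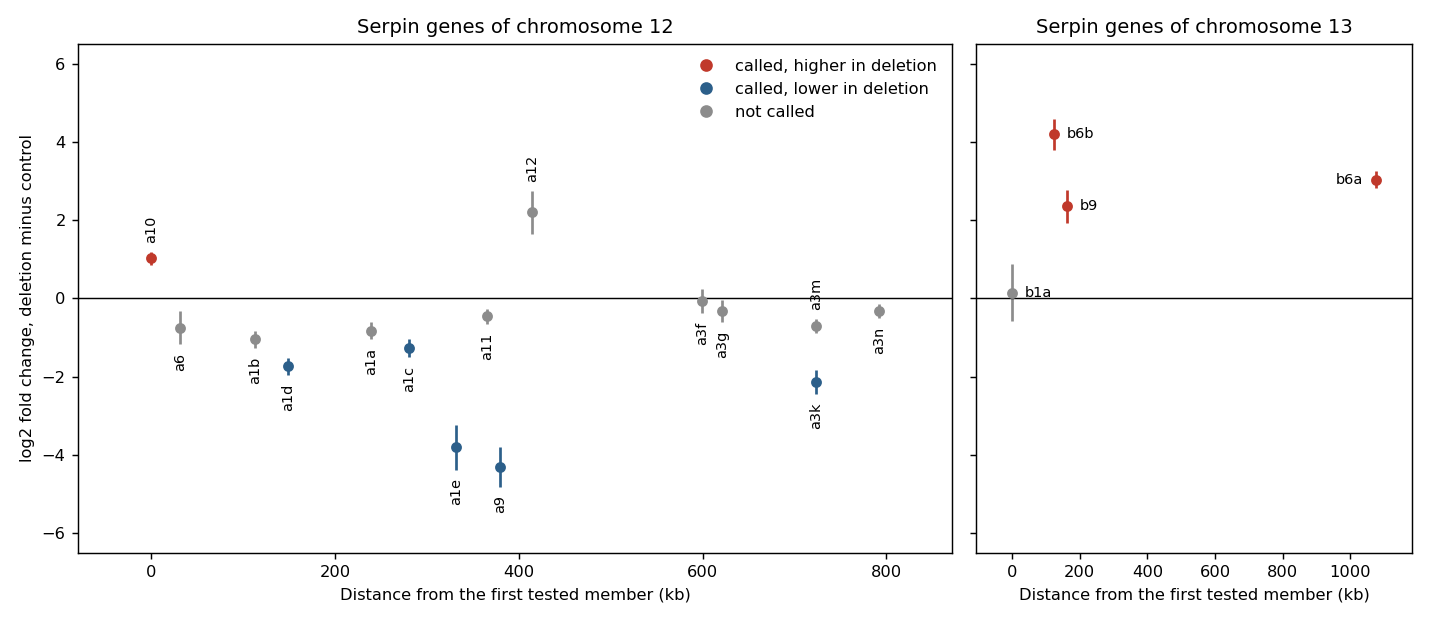
Log2 fold change, deletion minus control, of the tested serpins on chromosomes 12 and 13 against the distance of each gene from the first tested member (kb), with bars of 1 SE and names shortened by the leading Serpin. On chromosome 12, a1e and a9 are lowest, and b6b, b9 and b6a stand above 0 on chromosome 13.

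The proteases that serpins restrain, with their cofactors and clearance receptors, were a separate list. Of 36 listed genes, 33 were tested, 1 rose and 1 fell, so that 6.06% were called, close to the 6.57% of all tested genes. Their median log2 fold change was -0.16. Clotting factor XI (F11), a target of Serpina10 and antithrombin, fell to 49.7 and 51.3 CPM in the deletion libraries, against 119 and 121 CPM in controls (-1.25 ± 0.14, adjusted p = 0.00918). Tissue plasminogen activator (Plat), which activates plasminogen to plasmin, rose to 2.91 and 2.67 CPM in the deletion libraries, against 0.801 and 0.617 CPM in controls (1.96 ± 0.40, adjusted p = 0.0422). The Plat call was lost with deletion replicate 1 left out (adjusted p = 0.203), and likewise with deletion replicate 2 (0.222) or control replicate 2 (0.0515), in a range of 0.00136 to 0.222. F11 lost it without deletion replicate 2 (0.0526, in a range of 4.51e-09 to 0.0526). The neutrophil and mast cell proteases Elane, Ctsg and Cma1 stayed under the filter with 7, 2 and 8 counts over the 4 libraries.

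Protease inhibitors outside the serpin family formed the other list, with a median of -0.11. Of the 30 tested among 34 listed, 5 were called higher and 1 lower (20.0%, against 6.57% of all tested genes). The list was chosen with earlier results of these data known, so this share is descriptive and no test of an excess. Slpi, a secreted inhibitor of elastase and cathepsin G, rose to 54.1 and 47.7 CPM in the deletion libraries, against 3.94 and 1.58 CPM in controls (4.19 ± 0.38, adjusted p = 0.00545). Spink1, a trypsin inhibitor, rose to 43.6 and 30.9 CPM, against 3.51 and 2.68 CPM in controls (3.58 ± 0.26, adjusted p = 0.00400). The cytosolic cathepsin inhibitor Cstb rose to 146 and 176 CPM, against 36.3 and 31.2 CPM in controls (2.25 ± 0.18, adjusted p = 0.00401). Those 3 calls held under every alternative run, and Slpi was 5.001 on the log2 scale without control replicate 1. Timp1, an inhibitor of matrix metalloproteinases, and the calpain inhibitor Cast rose by 3.60 ± 0.68 and 0.98 ± 0.19 on the log2 scale (adjusted p = 0.0346 and 0.0379). Both lost their calls without deletion replicate 2 (0.117 and 0.184), Timp1 also without deletion replicate 1 (0.124), in ranges of 2.31e-09 to 0.124 for Timp1 and 2.59e-05 to 0.184 for Cast. Timp1 passed the filter only through the deletion libraries, with 74 and 60 counts there and 8 and 1 in controls, so its difference was in part a condition of being tested. Its log2 fold change was 5.56 without control replicate 1 and 2.84 without control replicate 2. Mug1, a plasma relative of alpha-2 macroglobulin that traps many proteases, fell to 1541 and 1567 CPM in the deletion libraries, against 3256 and 5526 CPM in controls (-1.50 ± 0.30, adjusted p = 0.0393). Its call was lost without deletion replicate 1 (0.104) or 2 (0.143), in a range of 1.48e-10 to 0.143.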

How the data were processed

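Gene expression was measured in 4 mouse liver samples with the QuantSeq 3' kit and single-end 75 bp reads on a NextSeq 550, aligned with Bowtie2, per the labels' protocols, which also name edgeR with TMM. The genome was mm10 (GRCm38), per the submitters' processing notes. Which program counted the reads, on which strand and with which gene models, is not given in the sources used here. Raw counts were deposited by the authors per Ensembl gene, and 0 columns of the table belong to no sample here. Symbols and coordinates come from GENCODE M21 (GRCm38), which matched 52029 of 56953 rows, and promoters come from RefSeq (GRCm38.p6), with an entry for 52 of the 61 members. Called members without one are Serpina3k, Serpina9 and Serpina10.

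The main test was edgeR's quasi-likelihood F test (edgeR 4.0.16, R 4.3.3), with TMM scaling, genotype as the only term, filterByExpr (minimum count 10, total 15) and Benjamini-Hochberg adjustment over 14600 genes. A gene was called at an adjusted p under 0.05, with 2 residual degrees of freedom among libraries. The ± of a log2 fold change is its SE. CPM values are TMM-scaled. Intervals of shares are exact (Clopper-Pearson), and floors are 3 counts. The code was tested on simulated data. Replicates were compared before grouping: the chi-square per degree of freedom of their counts was 25.3 for the deletion libraries and 38.9 for controls, which is above sampling noise. Alternatives included DESeq2 1.42.0 and limma-voom 3.58.1, other scalings and filters, and each library left out.

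Tested members were named, except 1 that is not reported here, and the others are given by counts and ranges. Of the protease and inhibitor lists, called genes were named, up to 6 per list by size of change, and Elane, Ctsg, Cma1, Spp1, Sox9 and Krt19 were added after their values were seen. The members and lists were chosen with earlier results of these data known.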

Additional observations from a re-analysis of the deposited data

How the results depend on the processing

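The main counts were 5 serpins higher and 5 lower. The higher count was 2 with the replicate block and 2 to 8 with each library left out. The lower count was 9 with DESeq2, 10 with no filter on low counts and 2 to 8 with each library left out. Counting only members with under 1% of 3' words shared, which was chosen after seeing the data, gave 2 lower. Library sizes alone, other scalings and filters otherwise left both counts within 1.5 times. In the protease list (1 higher, 1 lower), the higher count was 3 with library sizes alone, 3 with DESeq2, 0 with limma-voom, 5 with no filter, 0 with the replicate block and 0 to 3 with each library left out. The lower count was 4 with DESeq2, 4 with no filter and 0 to 2 with each library left out. Among other inhibitors (5 higher, 1 lower), the higher count was 3 with the replicate block and 3 to 6 with each library left out, and the lower count was 5 with DESeq2, 3 with no filter, 0 with the replicate block and 0 to 2 with each library left out. Summed clusters, on the log2 scale with a library left out, ran from -1.92 to -1.41 (Serpina1), -2.21 to -1.51 (Serpina3), 1.79 to 2.81 (Serpinb9), 3.00 to 3.45 (Serpinb6) and -0.61 to 1.98 (Serpinb1, main 0.16). The Serpinb1 sum was -0.19 without deletion replicate 2, -0.61 without control replicate 2 and 1.98 without control replicate 1. With the replicate block the Serpina1 sum was -1.68 (adjusted p = 0.0590) and the Serpinb9 sum 2.29 (0.0811).

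Among uncalled genes, some changed sign, and their ends of range with a library left out are given too. With library sizes alone, Serpina3f was 0.23, Serpinb8 0.26, Serpinc1 0.16 and Serpinf2 0.24. Without deletion replicate 1, Serpinb8 was 0.50, Serpinf2 0.01, Serpine2 0.43 and Serpinh1 0.14. Without deletion replicate 2, Serpina3f was 0.09, Serpinb1a -0.19, Serpinb8 -0.97, Serpine2 -0.31 and Serpinh1 -0.014. Without control replicate 1, Serpinb8 was 0.17, Serpine2 -0.05, Serpinf2 0.21, Serpina3f -0.25 and Serpinb1a 1.97. Without control replicate 2, Serpina3f was 0.15, Serpinb1a -0.62 and Serpinf2 -0.28. The cause was not tested.

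Same-numbered libraries share a number only: their deviations correlated at -0.13 across 14600 genes, and with the replicate block 390 genes were called in all, against 959. Serpina1c, Serpina7, Serpina10 and Serpinb9 lost their calls in it. The crossed pairing, chosen after seeing the data, called 1366 genes, 6 serpins higher and 5 lower. Over all genes, DESeq2 called 1647, no filter 2768, library sizes alone 1767, and each library left out 343 to 2081. A left-out library leaves a lone sample, assumed to vary like the other group. Depth limits members with few counts, and 2 libraries per group limit the rest.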

Other observations

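The pseudogene Serpina4-ps1, left out of the family by its annotation, had 10 and 17 counts in the deletion libraries, against 143 and 1122 counts in controls.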
